A study of Rattus norvegicus with 6 samples.

Results

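The genes described here are 10 immediate early genes outside the AP-1 family, namely the transcription factors Egr1, Egr3, Nr4a1, Nr4a2 and Nr4a3 and the response genes Ier2, Ier3, Btg2, Zfp36 and Dusp1. They were taken by gene symbol from a count table of 29884 genes, and all 10 were found. RNA was sequenced from sciatic nerve of wild type rats after chronic constriction injury (CCI), a model of neuropathic pain made by tying loose ligatures on the nerve. A set of 3 libraries came from CCI nerves without a conduit (untreated) and 3 from CCI nerves that received PLLA-PCL-RVC (conduit), a wrap of polymers that the study describes as piezoelectric and loaded with ropivacaine, a local anaesthetic. Every library therefore comes from injured nerve, and the polymer, its piezoelectric property and the drug cannot be told apart. The labels used here state neither strain, age nor time after injury, and they do not say whether each library is 1 animal, so p-values reflect only how far these libraries differ, which could be technical in part.

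Immediate early genes are transcribed within minutes of a stimulus, without new protein synthesis. Kinases of the ERK and p38 pathways act on factors already bound at the promoters, among them SRF with its ELK partners at CArG boxes and CREB at cAMP response elements, and the transcripts are short-lived. In peripheral nerve, Egr1 is known from immature and injured Schwann cells, while its relative Egr2 drives myelination. The labels give a single state per group, so how fast any of these genes was induced could not be examined here.

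Library totals ran from 38401951 to 42225086 counts, and every member passed the low-count filter with 93 or more counts in each library. Of 15464 genes tested with edgeR, 7760 (50.2%) passed an adjusted p of 0.05, 24.0% higher and 26.2% lower in conduit nerves. The higher genes were 47.8% of those calls with TMM (trimmed mean of M-values) scaling and 25.9% with library totals alone. Scaling by library totals moved the median log2 fold change of all genes from -0.04 to -0.43. Fold changes below are to be read against -0.04 with TMM scaling and against -0.43 with library totals. Untreated replicates 1 and 2 carry the same batch number and the other 4 libraries a number each, so no batch holds both groups and batch and treatment cannot be told apart. Schwann cell markers were abundant in all libraries, at summed levels of 11160 to 26140 CPM (a gene's share of the library's reads, scaled by TMM) in untreated and 153200 to 200500 CPM in conduit nerves. Macrophage markers went the other way, with 8 of 8 lower and sums of 2734 to 3328 against 393 to 681 CPM. Neutrophil (4 of 6), T cell (5 of 6) and proliferation markers (6 of 6) were lower too, with 0 higher and median log2 fold changes of -2.53, -2.35 and -3.85. In bulk nerve, fewer cells of a type and less RNA per cell cannot be told apart, and the part of cell make-up in the results below was not tested.

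The members did not move as a block. Nr4a1 and Nr4a2 rose in conduit nerves, Egr1, Ier2 and Ier3 fell, and Egr3, Nr4a3, Btg2, Zfp36 and Dusp1 did not pass. That makes 5 of 10 members called, 2 higher and 3 lower, against 50.2% of all genes tested, and the members' median log2 fold change was -0.40. The groups did not overlap in those same 5 members, against 61.7% of all genes tested. The count of called members is thus at the background of this comparison.

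**Figure D1:**
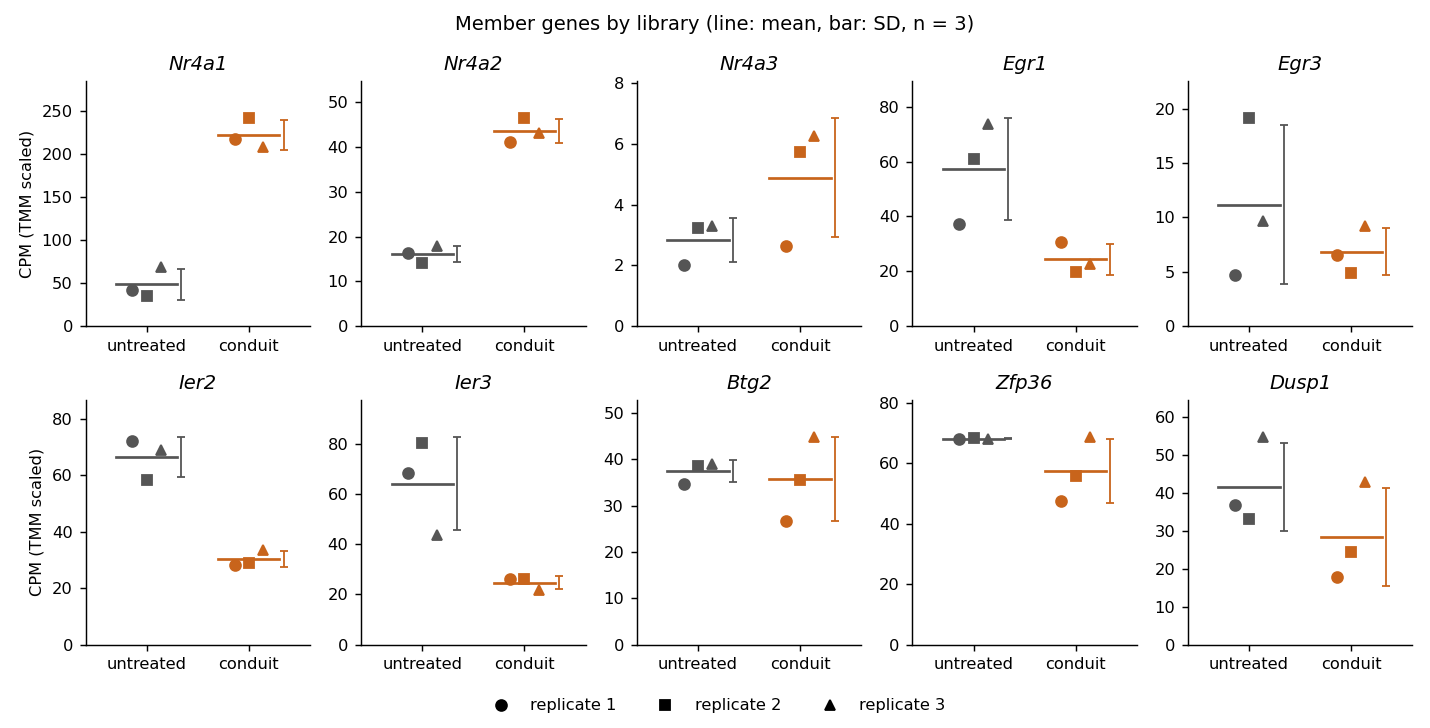
TMM-scaled CPM of each member in each library, with replicates 1, 2 and 3 as circles, squares and triangles, a line at the group mean and a bar for the SD (n = 3). All 3 conduit libraries lie above all 3 untreated libraries for Nr4a1 and Nr4a2 and below them for Egr1, Ier2 and Ier3, and the groups overlap in the other 5 panels.

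The NR4A genes encode orphan nuclear receptors, transcription factors whose activity is set mainly by how much of them is made. Nr4a1 (also called Nur77 or NGFI-B) was at 41.4, 35.1 and 68.3 CPM in untreated replicates 1, 2 and 3 and at 217, 241 and 208 CPM in conduit replicates 1, 2 and 3. Every conduit library was above every untreated library, and untreated replicate 3 stood above the other untreated libraries. The level went from 48.3 ± 17.7 to 222 ± 17.3 CPM (SD, n = 3), a 4.6-fold rise (log2 fold change 2.20 ± 0.26 SE, adjusted p = 0.000495, edgeR). With 1 library left out at a time the log2 fold change ran from 2.02 to 2.54, and it passed in 6 of 6 such fits.

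Nr4a2 (Nurr1), the relative known for its role in dopamine neurons, was at 16.4, 14.1 and 17.8 CPM in untreated and 41.2, 46.4 and 43.2 CPM in conduit libraries. Its groups were well apart, and the spread within each was small. It rose 2.71-fold, from 16.1 ± 1.87 to 43.6 ± 2.66 CPM, with a log2 fold change of 1.44 ± 0.13 SE (adjusted p = 0.000189, edgeR). Single libraries left out gave 1.35 to 1.52.

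Nr4a3 (Nor1) was the least abundant member. It had 93, 159 and 143 counts in untreated and 96, 203 and 239 counts in conduit libraries, or 2.01, 3.21 and 3.29 against 2.64, 5.74 and 6.26 CPM. Conduit replicate 1 lay within the untreated range while the other conduit libraries lay above it. The log2 fold change was 0.78 ± 0.38 SE and did not pass (adjusted p = 0.129, edgeR), whereas without conduit replicate 1 it was 1.10 and passed (adjusted p = 0.036, edgeR). It was smaller without untreated replicate 1, at 0.58 (adjusted p = 0.28, edgeR). With library totals it was 0.39 (adjusted p = 0.418, edgeR), and with limma on log2(FPKM + 1) it was 0.14 (adjusted p = 0.449, limma). In the latter fits the median over all genes was lower too, at -0.43 and -0.34, against -0.04 in the main fit.

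The 3 receptors were also compared with each other within libraries, as log2 ratios of FPKM (fragments per kilobase of gene, scaled to library total, with 0.1 added to each value). The added 0.1 leaves some dependence on library scaling, most for Nr4a3, whose FPKM was 0.36 to 0.908. Nr4a1 over Nr4a2 was 1.71, 1.69 and 2.32 in untreated and 2.78, 2.76 and 2.65 in conduit libraries, a difference of 0.83 without overlap. For Nr4a1 over Nr4a3 the difference was 1.58, from 4.90 ± 0.49 to 6.47 ± 0.57, also without overlap. Both had p = 0.1 in an exact two-sided permutation test, the smallest that 3 against 3 libraries allow, and 0.25 after adjustment over the 5 ratios computed. Nr4a2 over Nr4a3 differed by 0.75 with overlapping groups (exact permutation p = 0.2, adjusted 0.333). The ratios thus moved toward Nr4a1 in all conduit libraries, but at this group size no such difference can pass 0.05.

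The promoters of both genes that rose are shown beside that of Ier2, which fell, as examples of the cAMP response element (CRE) half-site TGACG in genes that went in either direction. The half-site was in 6 of 7 matched promoters, so it does not set these 3 apart. The sequences are the 250 bases before the RefSeq transcription start on the GRCr8 build, which is not the mRatBN7.2 build named in the submitters' processing notes. RefSeq promoters were matched for 7 of the 10 members, with a single start for each gene. Other starts were not examined, so a window, that of Nr4a2 included, may not hold the promoter used in nerve. Letters run 5′ to 3′ on the gene's strand, and capitals mark TGACG on either strand.
Nr4a1, chr7:134259888-134260137, plus strand: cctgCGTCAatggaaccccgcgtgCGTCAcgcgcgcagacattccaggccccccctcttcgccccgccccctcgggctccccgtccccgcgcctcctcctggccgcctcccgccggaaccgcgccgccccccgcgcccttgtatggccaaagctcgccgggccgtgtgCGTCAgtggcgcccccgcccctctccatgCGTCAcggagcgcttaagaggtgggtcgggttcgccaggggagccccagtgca
Nr4a2, chr3:62104888-62105137, minus strand: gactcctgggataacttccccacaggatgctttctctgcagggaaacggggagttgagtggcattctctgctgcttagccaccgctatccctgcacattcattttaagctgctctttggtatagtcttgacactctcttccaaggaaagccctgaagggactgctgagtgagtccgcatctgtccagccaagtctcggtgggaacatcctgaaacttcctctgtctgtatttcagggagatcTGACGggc
Ier2, chr19:40399123-40399372, plus strand: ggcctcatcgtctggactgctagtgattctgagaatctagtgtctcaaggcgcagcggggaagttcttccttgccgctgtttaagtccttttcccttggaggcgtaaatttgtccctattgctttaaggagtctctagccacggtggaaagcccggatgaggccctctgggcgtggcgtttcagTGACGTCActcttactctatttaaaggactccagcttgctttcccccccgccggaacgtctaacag

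Nr4a1 held 4 CRE half-sites, which started 246, 226, 82 and 53 bases before the transcription start, and Nr4a2 held 1. Egr1, Ier2 and Btg2 held 2 each, Dusp1 held 3 and Zfp36 held 0. At least 1 half-site was found in 18.2% of 33469 RefSeq promoter windows of the same length, and 4 or more in 0.173%. The full palindrome TGACGTCA, which counts as 2 half-sites, was found in Ier2, Btg2 and Dusp1 (1 each) and in 1.59% of all windows. A CArG box was found in Egr1, which had 2, and in Zfp36 (1.5% of all windows), and the EGR motif GCGNGGGCG in Nr4a1, Btg2 and Zfp36 (4.29%), each searched on both strands. The motif AAAGGTCA, bound by NR4A receptors, and the AP-1 motif TGANTCA were in none of the 7 windows (1.24% and 6.34% of all). Genes that rose, fell and did not pass are found among the holders of CRE motifs. A match describes the letters in this window and says nothing of binding in these nerves.

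EGR proteins are zinc finger transcription factors. Egr1 (also Krox24 or NGFI-A) was at 37.3, 61.05 and 73.6 CPM in untreated and 30.65, 19.6 and 22.7 CPM in conduit libraries. Untreated replicate 1 was the low library of its group, yet above every conduit library. Egr1 fell 2.36-fold, from 57.3 ± 18.4 to 24.3 ± 5.71 CPM, with a log2 fold change of -1.24 ± 0.28 SE (adjusted p = 0.00812, edgeR). With single libraries left out it ran from -1.47 to -1.02 and passed each time, with adjusted p up to 0.0396 (edgeR).

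Egr3, an EGR family member known from muscle spindles and lymphocytes, was at 4.72, 19.1 and 9.69 CPM in untreated and 6.49, 4.86 and 9.17 CPM in conduit libraries. The untreated libraries spanned all conduit values, and untreated replicate 2 was the highest of all. The log2 fold change was -0.71 ± 0.49 SE (adjusted p = 0.262, edgeR), and -0.07 without untreated replicate 2. The log2 ratio of Egr1 over Egr3 differed by -0.71 with overlapping groups (exact permutation p = 0.3, adjusted 0.375), so these libraries do not separate the responses of both genes.

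Egr2 and the EGR cofactor Nab1 rose while Egr1 fell. Egr2 (Krox20), the myelination factor, rose from 50.95 ± 10.7 to 174 ± 22.6 CPM, with a log2 fold change of 1.77 ± 0.19 SE (adjusted p = 0.000375, edgeR). NAB proteins bind EGR factors and repress or modify their output. Nab1 rose from 48.4 ± 6.70 to 118 ± 14.5 CPM, with a log2 fold change of 1.28 ± 0.15 SE. Nab2 was at 0.61 ± 0.18 (adjusted p = 0.0231, edgeR), and the call was lost in 4 of 6 fits with a library left out, namely untreated replicate 1 (adjusted p = 0.0632, edgeR), untreated replicate 2 (0.0534), conduit replicate 1 (0.0578) and conduit replicate 2 (0.0797). It was lost with library totals too (0.22, adjusted p = 0.276, edgeR). Egr4 had 2 counts over all 6 libraries and was not tested. Schwann cell markers, with 7 of 7 higher in conduit nerves, moved with Egr2 and Nab1, and their part in these values was not tested.

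Ier2 and Ier3 encode small proteins of unrelated sequence that share only their fast induction, and Ier3 is linked to cell survival. Ier2 was at 72.0, 58.3 and 68.85 CPM in untreated and 28.04, 29.0 and 33.4 CPM in conduit libraries. All untreated libraries were far above the conduit libraries. It fell 2.2-fold, from 66.4 ± 7.18 to 30.1 ± 2.84 CPM, with a log2 fold change of -1.14 ± 0.13 SE (adjusted p = 0.00052, edgeR). Ier3 was at 68.3, 80.2 and 43.7 CPM in untreated and 26.0, 26.15 and 21.9 CPM in conduit libraries. Untreated replicate 3 was lower than its group, and the conduit libraries lay close together below it. It fell 2.6-fold, from 64.1 ± 18.6 to 24.7 ± 2.42 CPM, with a log2 fold change of -1.38 ± 0.23 SE (adjusted p = 0.00214, edgeR). The log2 ratio between them differed by 0.20 (exact permutation p = 0.6), less than the spread of 0.56 (SD) among untreated libraries.

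Zfp36, Dusp1 and Btg2 encode proteins that shut responses down. Tristetraprolin, the product of Zfp36, binds AU-rich elements and speeds the decay of cytokine mRNAs. Zfp36 was at 68.1, 68.2 and 67.9 CPM in untreated and 47.6, 55.8 and 68.65 CPM in conduit libraries. Conduit replicate 3 matched the untreated level while the other conduit libraries were lower. The log2 fold change was -0.25 ± 0.15 SE and did not pass (adjusted p = 0.206, edgeR). With library totals it was -0.63 and passed (adjusted p = 0.0137, edgeR), in a fit whose median over all genes was -0.43.

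Dusp1 (MKP-1), a phosphatase that switches off MAP kinases, was at 36.7, 33.0 and 54.7 CPM in untreated and 17.8, 24.3 and 42.8 CPM in conduit libraries. Conduit replicate 3 lay within the untreated range, and the other conduit libraries lay below it. The log2 fold change was -0.55 ± 0.34 SE (adjusted p = 0.21, edgeR), and -0.94 without conduit replicate 3 (adjusted p = 0.0301, edgeR). It was closer to 0 without conduit replicate 1 (-0.29, adjusted p = 0.485) and without untreated replicate 3 (-0.30, adjusted p = 0.517). Btg2, an antiproliferative partner of the CCR4-NOT deadenylase, was at 34.75, 38.6 and 39.0 CPM in untreated and 26.8, 35.6 and 44.9 CPM in conduit libraries. Conduit libraries lay on both sides of the untreated ones, and the log2 fold change was -0.07 ± 0.19 SE (adjusted p = 0.792, edgeR).

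**Figure D2:**
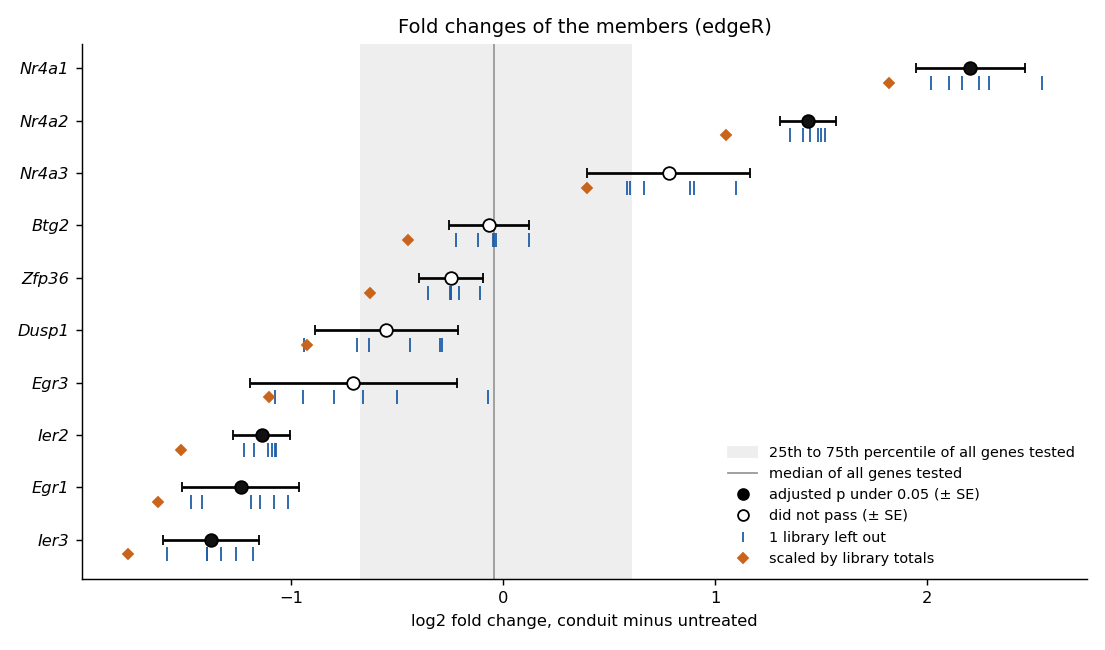
Log2 fold change of each member (horizontal axis, conduit minus untreated) with its standard error, filled where the adjusted p was under 0.05, with blue ticks for fits that leave out 1 library and orange diamonds for scaling by library totals. Nr4a1 and Nr4a2 lie above the 25th to 75th percentile of all genes tested, and Ier2, Egr1 and Ier3 lie below it in every fit drawn. That percentile band is from the TMM fit alone, while the diamonds belong to a fit whose median over all genes was -0.43.

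Libraries within a group also differed. Those that were highest or lowest of their group in 6 of 10 members were picked for that count and are named as a description. Conduit replicate 3 had the highest conduit level in 6 of 10 members (Egr3, Nr4a3, Ier2, Btg2, Zfp36 and Dusp1), against 37.5% of all genes tested, and conduit replicate 1 had the lowest in 6 of 10 (Nr4a2, Nr4a3, Ier2, Btg2, Zfp36 and Dusp1), against 34.4%. Untreated replicate 3 had the highest untreated level in 6 of 10 as well (Egr1, Nr4a1, Nr4a2, Nr4a3, Btg2 and Dusp1), against 30% of all genes tested. Btg2, Zfp36 and Dusp1 deviated from their group means together, with Pearson r of 0.85 to 0.96 across the 6 libraries, a description over points that share a library. Nr4a1 and Nr4a2 deviated together as well (r = 0.86), and Nr4a1 and Ier3 in opposite directions (r = -0.88). These are the most extreme of all member pairs compared, and over so few libraries such values arise easily. Adipocyte markers were highest in conduit replicate 3, with a sum of 2134 CPM, where conduit replicates 1 and 2 had 482 and 592 CPM and untreated nerves 468 to 1370 CPM, and 2 of 6 passed, both higher. Skeletal muscle markers were at 9939 CPM in untreated replicate 1 and 3.39 to 72.2 CPM elsewhere, and 5 of 5 tested were lower in conduit nerves. The part of either tissue in the members' values was not tested. Without untreated replicate 1 and conduit replicate 3, a setting chosen after the data were seen, 7 members passed. Over all genes 6101 were called in that fit, against 7760 with all libraries. Egr3 (-1.32, adjusted p = 0.0379, edgeR) and Dusp1 (-1.03, adjusted p = 0.0335) then joined the 5 called before, of which Nr4a1 was at 2.18 and Egr1 at -1.39. Untreated replicate 1 was the lowest untreated library for Egr3, and conduit replicate 3 was the highest conduit library for Egr3 and Dusp1. The choice of libraries itself thus moved Egr3 and Dusp1 down, so their passing in this fit is no support for a fall.

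Levels were compared between members on the FPKM scale, which divides by gene length. In untreated nerves Ier3 (66.9 ± 20.8 FPKM) and Ier2 (49.6 ± 3.92) were highest with overlapping ranges, followed by Zfp36 (43.0 ± 1.41). Dusp1 (24.6 ± 6.60), Egr1 (21.0 ± 6.91), Nr4a1 (18.8 ± 6.68) and Btg2 (17.0 ± 1.44) came next, and neighbours among them overlapped. Nr4a2 (4.77 ± 0.454), Egr3 (2.64 ± 1.80) and Nr4a3 (0.522 ± 0.141) were lowest. In conduit nerves Nr4a1 was first, at 66.4 ± 3.48 FPKM, with Zfp36 next at 27.8 ± 5.90 and no overlap between them. Ier3 (19.6 ± 1.39), Ier2 (17.3 ± 2.15), Dusp1 (13.0 ± 6.34), Btg2 (12.5 ± 3.46) and Nr4a2 (9.90 ± 0.542) followed with overlapping neighbours, then Egr1 (6.80 ± 1.596), Egr3 (1.23 ± 0.429) and Nr4a3 (0.687 ± 0.283). Nr4a1 thus went from the sixth place to the first.

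Within each library, Nr4a1 made up 6.7, 5.43 and 10.6% of the members' summed FPKM in untreated replicates 1, 2 and 3 and 40.2, 40.6 and 33.5% in the conduit replicates. For the 3 NR4A genes together the share was 9.71 ± 2.91% in untreated and 44.2 ± 4.26% in conduit libraries (SD, n = 3), and the groups did not overlap. These shares do not depend on how libraries are scaled. The summed level does: it was 413 ± 32.7 CPM in untreated and 478 ± 29.9 CPM in conduit libraries with TMM scaling, but 249 ± 12.8 and 175 ± 15.95 on the FPKM scale, which uses library totals, so no direction is given for it.

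**Figure D3:**
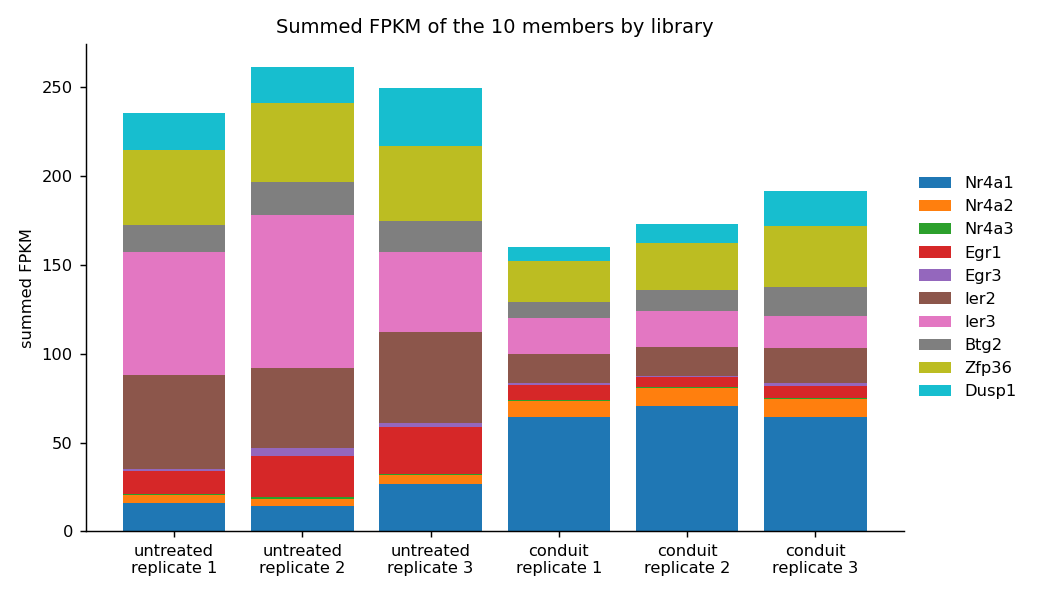
Summed FPKM of the 10 members in each library (vertical axis), stacked by gene. Nr4a1, at the base of each bar, takes 5.43 to 10.6% of the untreated bars and 33.5 to 40.6% of the conduit bars.

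Close relatives and partners of the members changed in both directions. Of 19 listed genes 18 were tested, and 7 rose and 8 fell, beside 24.0% and 26.2% of all genes tested. The median log2 fold change was -0.35, and the counts were 4 and 9 with library totals. The higher count also went to 4 without untreated replicate 1 or without conduit replicate 2. Besides Egr2 and Nab1, Tob1, an antiproliferative relative of Btg2, rose from 19.5 ± 2.07 to 43.4 ± 3.51 CPM, with a log2 fold change of 1.15 ± 0.13 SE (adjusted p = 0.000439, edgeR). Dusp10, a phosphatase of JNK and p38, fell from 41.4 ± 15.1 to 2.69 ± 1.30 CPM, with a log2 fold change of -3.94 ± 0.47 SE (adjusted p = 0.000518, edgeR). The Ier2 relatives Ier5 (-0.90 ± 0.12) and Ier5l (-0.93 ± 0.13) fell in the same direction as Ier2.

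Of 20 genes for factors and kinases that act on immediate early promoters, 4 rose and 7 fell (3 and 12 with library totals), with a median of -0.21. The 11 calls are close to the 50.2% of all genes tested and are no result about these genes as a set. The transcripts of Srf (0.00 ± 0.15) and Creb1 (-0.01 ± 0.22), which encode the central factors at CArG boxes and CREs, did not pass (adjusted p = 0.989 and 0.984, edgeR). The CREB coactivators Crtc3 (log2 fold change 1.21 ± 0.12 SE) and Crtc1 (0.85 ± 0.13) rose, as did Mapk3, which encodes the kinase ERK1 (1.30 ± 0.16). Rps6ka1, the ERK-activated kinase RSK1, fell from 79.4 ± 6.90 to 17.1 ± 1.34 CPM (-2.22 ± 0.13, adjusted p = 7.51e-05, edgeR). Elk3 (-1.38 ± 0.23), an SRF partner, and Atf1 (-0.68 ± 0.12), a CREB relative, fell. Kinase activity and phosphorylation of these factors were not measured.

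AP-1 genes, the other large class of immediate early genes, had 5 of 8 lower and 0 higher, beside 26.2% and 24.0% of all genes tested. Their median was -1.09. The lower AP-1 genes were Fosl1 (-5.52 ± 0.41), Fos (-3.16 ± 0.33), Jun (-1.64 ± 0.20), Junb (-1.17 ± 0.13) and Atf3 (-1.01 ± 0.23). Fosl2 (-0.47 ± 0.23), Jund (0.23 ± 0.18) and Fosb (0.21 ± 0.53) did not pass, although Fosl2 did without conduit replicate 3 (-0.74, adjusted p = 0.0086, edgeR) and with library totals. Atf3 did not pass without both untreated replicate 1 and conduit replicate 3 (-0.64, adjusted p = 0.0615, edgeR).

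Among 36 listed early response genes, 35 were tested, 7 rose and 14 fell (4 and 21 with library totals), with a median of -0.33. Tob1, counted here as higher, also stands among the relatives and partners above. Plk3, counted as lower, also stands among the tristetraprolin targets below. Plk2, a stress-induced kinase (log2 fold change -1.23 ± 0.12 SE), Socs3, the feedback inhibitor of cytokine receptors (-2.03 ± 0.21), and Myc, a growth-promoting factor (-1.63 ± 0.20), fell. Per1, a clock gene that is also induced by glucocorticoids, rose from 27.1 ± 11.6 to 106 ± 12.9 CPM (1.96 ± 0.32, adjusted p = 0.00214, edgeR), and Tiparp, a target of the aryl hydrocarbon receptor, rose by 1.20 ± 0.15. The calls set beside the 24.0% higher and 26.2% lower of all genes tested are a description, and without conduit replicate 2 they were 4 higher and 11 lower.

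Known target mRNAs of tristetraprolin were lower or did not pass. Of 14 listed, 12 were tested, and 8 fell and 0 rose, beside 26.2% and 24.0% of all genes tested. The median was -2.20, while Zfp36 itself was at -0.25. Lif, a cytokine of injured Schwann cells, fell from 74.0 ± 23.9 to 1.79 ± 0.205 CPM, with a log2 fold change of -5.37 ± 0.28 SE (adjusted p = 6.97e-05, edgeR). Il1b (-2.55 ± 0.29) and Ccl2 (-2.73 ± 0.32), which encode inflammatory mediators, fell too. Ier3 is one of the 8 and also a member. Markers of macrophages (8 of 8 lower), neutrophils (4 of 6), T cells (5 of 6) and proliferation (6 of 6) moved in the same direction as these genes, and their part was not tested. The Zfp36 relative Zfp36l2 fell (-0.61 ± 0.11), and Zfp36l1 (-0.44 ± 0.18) did not pass.

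Dusp1, Zfp36 and Ier3 are also known as glucocorticoid-responsive in many cells. Of 12 other genes on a glucocorticoid list, 8 rose and 2 fell (6 and 3 with library totals), beside 24.0% and 26.2% of all genes tested. The list median was 1.63, and none of those 3 members rose. Whether glucocorticoid signalling had a part in these values was not tested. Tsc22d3, which encodes the anti-inflammatory protein GILZ, rose from 80.2 ± 37.4 to 679 ± 175 CPM, with a log2 fold change of 3.08 ± 0.40 SE (adjusted p = 0.000772, edgeR). Klf15 (3.66 ± 0.46) and Klf9 (2.07 ± 0.26) rose as well, while Mt2A, a metallothionein (-2.35 ± 0.40), and Angptl4, a lipase inhibitor (-1.76 ± 0.30), fell. Per1, Sgk1 and Errfi1 stand in this list and in the early response list.

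**Figure D4:**
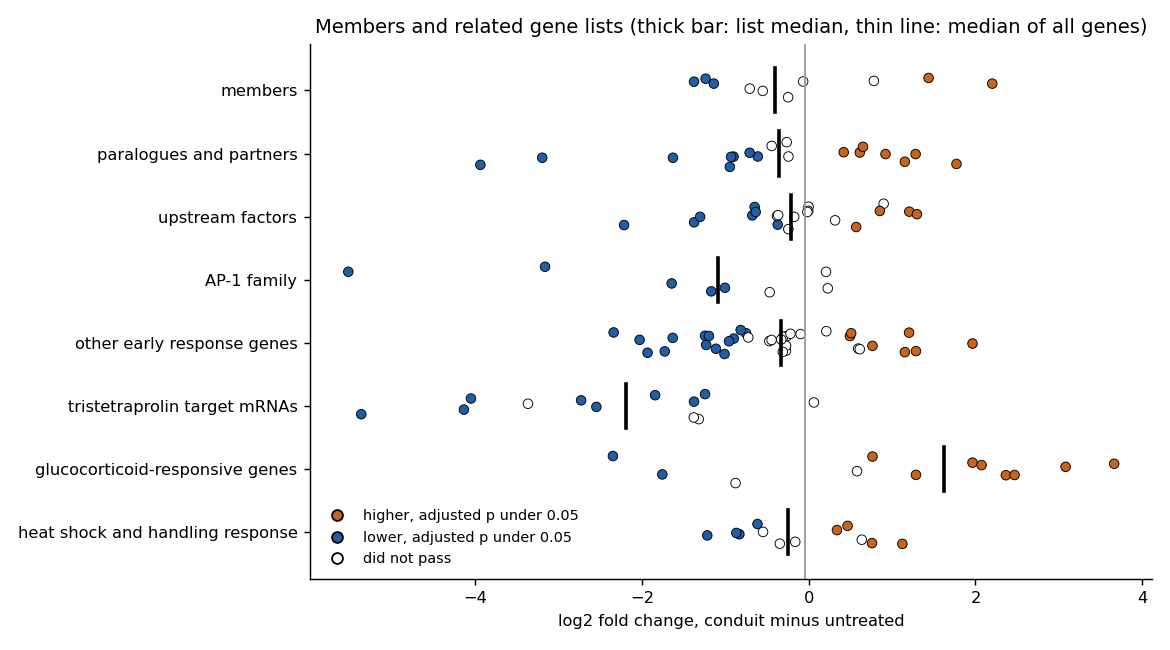
Log2 fold change (horizontal axis, conduit minus untreated) of every tested gene in the member list and the 7 related lists, 1 point per gene, orange where higher and blue where lower at an adjusted p under 0.05 and white where not passed. List medians run from -2.20 for tristetraprolin targets to 1.63 for glucocorticoid-responsive genes, with the members at -0.40 beside -0.04 for all genes tested.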

How the data were processed

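For 6 libraries, whole-number counts and FPKM values of each gene were deposited by the authors. TRIzol served for RNA extraction and a VAHTS Universal V10 kit for the libraries, per the labels' protocols. The tools HISAT2, fastp, DESeq2 and HTSeq and the build mRatBN7.2 are named in the submitters' processing notes, with neither version nor role. In all 20504 genes with FPKM above 0 in 2 or more libraries, deposited FPKM equalled the count over 1 gene length and the library total (tolerance 0.0001). Whether strand was kept is not given in the sources used here, so reads of antisense partners may be included. Genes with too few counts were removed (filterByExpr, minimum count 10), and the other 15464 were tested with edgeR 4.0.16 in R 4.3.3 (quasi-likelihood F test, TMM scaling, group alone, two-sided, Benjamini-Hochberg over all genes tested). Standard errors are the log2 fold change over the square root of F, and CPM values are TMM scaled. The fit was tested on simulated data of the same size. There, small changes were rarely recovered and false calls were more frequent than the threshold allows for. The recovery asked for large changes was lowered after it was first missed. A far smaller share of genes was changed there than the 50.2% called here, so these rates do not carry over to these data. A gene that did not pass may still have changed. Log2 CPM used a prior count of 2.

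The members and gene lists were chosen with earlier results of these data known, so list counts and medians are descriptions. Named genes are all members, the 3 called genes of smallest adjusted p per direction in each list, Egr2, Egr4, Nab1 and Nab2, and all AP-1 genes. Srf, Creb1, Zfp36l1, Zfp36l2 and Hspa1b were added after their values were seen. The members were also tested with each library left out, a replicate block, RLE scaling, scaling by library totals, no filter, a filter of 5 CPM in 3 libraries and DESeq2 1.42.0. Further fits used limma 3.58.1 on log2(FPKM + 1) with and without a filter (0.5 FPKM in 3 libraries) and on log2(FPKM + 0.1). Of the genes most like a member in pattern, some are not reported here.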

Additional observations from a re-analysis of the deposited data

How the results depend on the processing

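The directions of Nr4a1, Nr4a2, Egr1, Ier2 and Ier3 and their calls held under all 10 other settings and with each of the 6 libraries left out. Between 5 and 7 members passed in those fits. With both filtered limma fits 7 passed, as did 8064 and 8050 of 13161 genes tested, against 7760 of 15464 in the main fit. The other fit with 7 left out untreated replicate 1 and conduit replicate 3, and 6101 genes passed there. Nr4a2 was at 0.92 with limma on log2(FPKM + 1). Btg2, which did not pass in any fit, ran from -0.22 to 0.12 with single libraries left out, the latter without conduit replicate 1, and the cause was not tested. Zfp36 passed with library totals and with the 3 limma fits on FPKM, and Dusp1 passed with both filtered limma fits, without conduit replicate 3 and with a replicate block. FPKM values also rest on library totals, and 25.3% of calls over all genes were higher with limma on filtered log2(FPKM + 1). The replicate numbers of both groups share only a number (correlations of same-numbered deviations 0.144, -0.0278 and 0.0636), and with the replicate block 6 members passed, with Dusp1 at -0.61 (adjusted p = 0.0344, edgeR), and 7514 genes in all. The log2 ratio of Ier2 over Ier3 ran from -0.076 to 0.48 with single libraries left out, below 0 without untreated replicate 2. The summed CPM of the members differed by 64.6 with TMM scaling and by -54.2 with library totals. Genes called over all genes ran from 5840 to 7882 with single libraries left out. Nr4a3, the least abundant member, had 93 to 239 counts a library, and 3 libraries a group limit what can pass for members with a wide spread.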

Other observations

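Heat shock and handling genes, which respond to tissue stress at harvest as immediate early genes can, changed in both directions. Of 12 tested, 4 rose and 4 fell (1 and 5 with library totals), beside 24.0% and 26.2% of all genes tested. The list median was -0.25. Hspa1a, an inducible HSP70 gene, rose from 15.6 ± 3.59 to 33.96 ± 2.03 CPM, with a log2 fold change of 1.12 ± 0.18 SE (adjusted p = 0.00211, edgeR). Hspa1b, also an inducible HSP70 gene, did not pass and its groups overlapped (0.64 ± 0.34, adjusted p = 0.158, edgeR). The cochaperones Dnajb4 (0.76 ± 0.13) and Dnajb1 (0.47 ± 0.10) also rose, but with library totals they were at 0.37 and 0.08 and did not pass. Bag3, an HSP70 partner (-1.22 ± 0.23), and the mitochondrial chaperones Hspd1 (-0.87 ± 0.17) and Hspe1 (-0.83 ± 0.16) fell.

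Genes whose deviations from the group means most resembled each member's across the 6 libraries were named among 11339 genes with a mean of at least 5 CPM. Over so few libraries high values arise for many genes, and they are given as descriptions. They were RGD1563072 (r = 0.999), Ptx3 (0.998) and Cdk5rap1 (0.998) for Nr4a1, and Cldn11 (0.995) and Tmem43 (0.994) for Nr4a2. For Egr1 they were Fam149b1 (0.996), Gmcl1 (0.994) and Mettl25 (0.989), and for Egr3 Rsf1 (0.999), Pdzd2 (0.999) and Arf3 (0.998). Ier2 was nearest to Nfe2l1 (0.999), Abcg3l4 (0.998) and LOC100365289 (0.994), and Ier3 to Ftsj3 (0.997), Eif3b (0.997) and Slc22a23 (0.995). For Btg2 they included RGD1563888 (0.997) and Stom (0.997). Zfp36 was nearest to Mnda (0.999), Selplg (0.998) and Angel1 (0.997), and Dusp1 to Gas1 (0.996), Mbd4 (0.995) and Gpihbp1 (0.995). Nr4a3, at a mean under 5 CPM, was left out by the rule.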
